A study of Mus musculus with 18 samples.

Results

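Apolipoproteins are the protein components of the particles that carry lipid in blood, and 10 of their genes (Apoa1, Apoa2, Apoa4, Apoa5, Apob, Apoc1, Apoc2, Apoc3, Apoe and Apom) were followed here in mouse liver. The platform annotation of the deposited value table gave these 10 genes 16 probe sets, and the probe set with the highest mean over all arrays stood for each gene. All 10 genes passed the filter on dim probe sets and are 10 of the 14691 genes tested. Liver RNA of C57BL/6 mice was measured on 18 one-colour Affymetrix expression arrays, 3 per group. The groups were AIM-KO (AIM-/-) and WT (AIM+/+) mice on normal chow, AIM-KO and WT mice after 12 weeks of a high-fat diet (HFD), and AIM-KO and WT mice after 20 weeks of HFD. AIM, the apoptosis inhibitor of macrophage, is a secreted protein encoded by Cd5l. The labels speak of biological replicates without naming separate animals, and the p-values therefore speak of the spread among these 18 samples. No ages are given, and age cannot be told apart from the weeks spent on HFD.

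The liver packs triglyceride and cholesterol around one molecule of apolipoprotein B and secretes the particle as very low density lipoprotein (VLDL). The smaller apolipoproteins exchange between particles in plasma: those of the C class control lipolysis by lipoprotein lipase, apolipoprotein E is a ligand for receptors that take up remnants, and apolipoproteins A-I, A-II and M travel mainly with high density lipoprotein (HDL). Many of these genes are among the most abundant transcripts of hepatocytes, and Apoe and Apoc1 are also transcribed in macrophages.

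The value of a probe set is its deposited MAS5 intensity, a linear brightness. Tests used limma on log2(intensity + 3.3), and a gene was called at a Benjamini-Hochberg adjusted p under 0.05 over all 14691 genes. Array medians lay between 15.0 and 21.1 and array maxima between 10002.9 and 16640. Cd5l read 4.0 to 23.5 on the 9 AIM-KO arrays and 702.6 to 1926.8 on the 9 WT arrays; the sources used here do not say whether its probe set lies outside the deleted part. The hepatocyte markers Alb and Ttr read at least 6138.8 on every array. Xist read 2921.6 to 3049.7 on 4 arrays, all 3 of AIM-KO at 20 weeks and replicate 2 of WT at 20 weeks, and 7.8 to 26.2 on the other 14. The Y-linked Eif2s3y read at most 7.3 on those 4 arrays and at least 498.4 on the others. The labels give no sex, and in AIM-KO at 20 weeks the diet and this split cannot be told apart.

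Among the 10 genes, 2 rose on HFD in both genotypes and at both times, Apoa4 and Apoc2, and 1 fell in 3 of the 4 comparisons with chow, Apom. The rest lay within narrow bands near the top of the intensity scale. In AIM-KO at 12 weeks 5 members were called, against 18.1% of all genes: 2 were higher, against 11.4%, and 3 lower, against 6.78%. In WT 3 members were called at 12 weeks, against 5.15% of all genes: 2 were higher, against 3.52%, and 1 lower, against 1.63%. The same 3 were called in WT at 20 weeks, against 14.5% of all genes, with 8.72% higher and 5.77% lower. In AIM-KO at 20 weeks 2 members were called, both higher, against 6.96% of all genes, of which 4.29% were higher. The median log2 change over the members was -0.29 in AIM-KO and -0.09 in WT at 12 weeks, where the median over all genes was 0.04 in AIM-KO and -0.0012 in WT. Most members are bright, and the mean log2 of the 100 brightest other probe sets moved by -0.30 in AIM-KO and -0.09 in WT at 12 weeks.

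**Figure D1:**
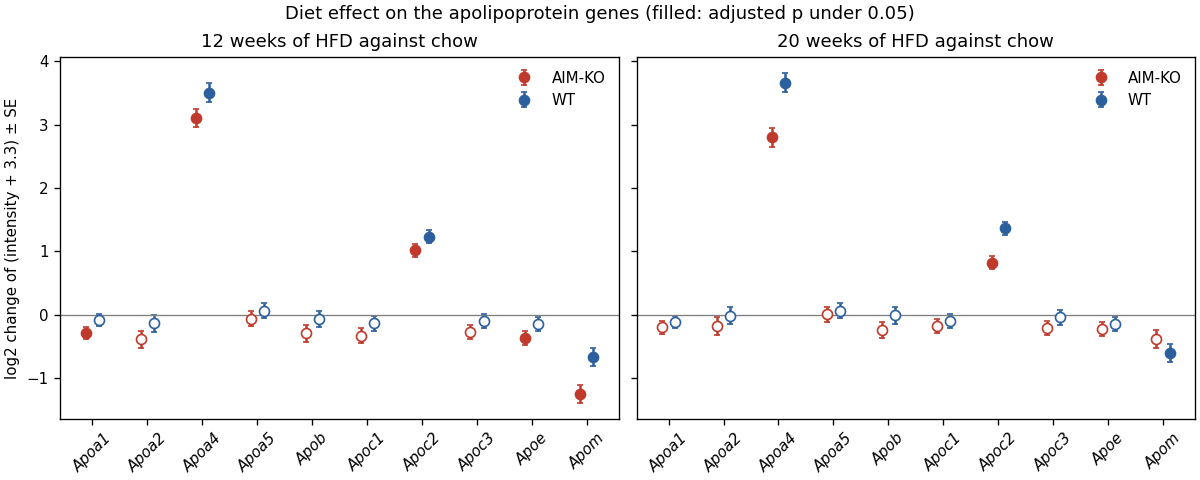
Log2 change of log2(intensity + 3.3) for each of the 10 genes (x axis), HFD minus chow, at 12 weeks (left) and 20 weeks (right). Points are AIM-KO (red) and WT (blue) estimates from limma with their standard errors, and filled points have an adjusted p under 0.05; Apoa4 and Apoc2 lie above 0 in both genotypes, and Apom lies below it.

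Apoa4 encodes apolipoprotein A-IV, which is made in intestine and, in mice, also in liver, and which rides on chylomicrons, VLDL and HDL. On chow Apoa4 read 678.4, 635.4 and 842.1 in AIM-KO livers and 695.9, 560.9 and 503.2 in WT livers. At 12 weeks of HFD it read 6397.9, 5863.5 and 6276.8 in AIM-KO and 6409.2, 6635.8 and 6889.8 in WT. At 20 weeks it read 5144.1, 4993.3 and 4825.7 in AIM-KO and 6966.3, 6047.3 and 9631.0 in WT. No HFD array overlapped any chow array, and at 20 weeks the lowest WT array stood above the highest AIM-KO array. The mean was 8.60 times the chow mean in AIM-KO and 11.3 times in WT at 12 weeks, and 6.94 times in AIM-KO and 12.9 times in WT at 20 weeks. In liver pieces, more RNA per cell and more cells making the RNA cannot be told apart. The log2 change was 3.11 ± 0.15 in AIM-KO (SE; limma adjusted p = 3.5e-10) and 3.51 ± 0.15 in WT (adjusted p = 4.2e-11) at 12 weeks. The 20-week change was 2.80 ± 0.15 in AIM-KO (adjusted p = 1.9e-09) and 3.66 ± 0.15 in WT (adjusted p = 1.9e-11).

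The brighter Apoa4 probe set carries the manufacturer's suffix for sets that may also bind other transcripts, so the dimmer set of the same gene was read beside it. The dimmer Apoa4 set gave 397.8, 322.5 and 546.5 in AIM-KO and 370.4, 342.3 and 268.0 in WT on chow. At 12 weeks its mean was 15.4 times the chow mean in AIM-KO and 18.02 times in WT, and at 20 weeks it was 9.17 times in AIM-KO and 20.9 times in WT. Both sets thus placed every HFD array above every chow array, and the dimmer set gave the larger ratios. Of the enterocyte markers on the array, Alpi, Cdx1, Cdx2, Lct and Vil1 read at most 25.7 on any array, while Fabp2 read 816.5 to 4300.0.

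The bases upstream of the Apoa4 start are shown because this gene had the largest diet effect of the 10. The window is the RefSeq promoter entry of build GRCm38.p6 at chr9:46240594-46240843 on the plus strand, cut to the 250 bases before the start. Capitals mark CAAAGTNCA, the core of a direct repeat bound by HNF4 and related nuclear receptors. It begins 182 bases before the start and occurs on either strand in 1.19% of 32851 windows of this length. The motif was chosen with the sequences in view, and a match of letters is not evidence of binding.
Apoa4: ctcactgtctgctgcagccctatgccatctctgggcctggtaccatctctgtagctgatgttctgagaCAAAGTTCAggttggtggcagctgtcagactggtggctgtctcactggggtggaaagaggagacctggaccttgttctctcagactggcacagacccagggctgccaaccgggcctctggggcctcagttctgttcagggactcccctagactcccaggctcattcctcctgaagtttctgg

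Apoc2 encodes apolipoprotein C-II, the cofactor that lipoprotein lipase needs to hydrolyse triglyceride. On chow Apoc2 read 3103.9, 2650.1 and 2793.8 in AIM-KO and 2390.5, 2412.9 and 2288.6 in WT. At 12 weeks it read 5853.3, 5636.8 and 5775.9 in AIM-KO and 5469.3, 5752.5 and 5444.5 in WT. The 20-week values were 5301.8, 4781.3 and 5021.4 in AIM-KO and 5971.9, 5176.3 and 7302.4 in WT. Every HFD array lay above every chow array, and on chow every AIM-KO array lay above every WT array. The log2 change at 12 weeks was 1.02 ± 0.10 in AIM-KO (adjusted p = 4.4e-06) and 1.23 ± 0.10 in WT (adjusted p = 1.2e-06). The 20-week change was 0.82 ± 0.10 in AIM-KO (adjusted p = 7.4e-05) and 1.36 ± 0.10 in WT (adjusted p = 2.7e-07). Both Apoa4 and Apoc2 were called in these 4 comparisons under all 20 other ways of processing tried for each. Apoc2 has 1 probe set, so the settings that use other probe sets could not change its values.

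Across the 18 arrays the log2 values of Apoa4 and Apoc2 had a Pearson correlation of 0.99. After the group means were removed it was 0.68, so most of the pooled value follows the split between chow and HFD. The Apoc2 window, shown for comparison with Apoa4, lies at chr7:19677942-19678191 on the minus strand of GRCm38.p6 (RefSeq). Capitals mark AGGTCA, a nuclear receptor half-site, 115 bases before the start and present in 14.0% of all windows. CAAAGTNCA was not found in it on either strand, and the HNF1 half-site letters GTTAAT, present in 6.43% of windows, begin 89 bases before the start without overlap.
Apoc2: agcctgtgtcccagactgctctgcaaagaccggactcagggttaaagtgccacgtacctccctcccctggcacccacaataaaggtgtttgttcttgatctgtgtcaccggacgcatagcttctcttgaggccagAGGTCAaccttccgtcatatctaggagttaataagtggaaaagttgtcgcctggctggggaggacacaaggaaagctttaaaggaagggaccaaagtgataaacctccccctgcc

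Apom encodes apolipoprotein M, an HDL protein that carries sphingosine-1-phosphate. On chow Apom read 3308.2, 2691.3 and 2570.2 in AIM-KO and 2420.9, 2535.3 and 2592.9 in WT. At 12 weeks of HFD it read 1309.7, 1184.0 and 1105.2 in AIM-KO and 1366.6, 1774.0 and 1661.8 in WT. The 20-week values were 2354.3, 2136.7 and 2067.1 in AIM-KO and 1518.1, 2133.1 and 1391.8 in WT. At 12 weeks all arrays of both genotypes lay below all chow arrays and every AIM-KO array lay below every WT array. At 20 weeks the 4 Xist-high arrays were the 4 highest of the 6. The log2 change at 12 weeks was -1.24 ± 0.14 in AIM-KO (adjusted p = 1.1e-05) and -0.66 ± 0.14 in WT (adjusted p = 0.0089). The 20-week change was -0.38 ± 0.14 in AIM-KO (adjusted p = 0.12) and -0.61 ± 0.14 in WT (adjusted p = 0.0070).

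Within AIM-KO, Apom was higher at 20 than at 12 weeks by 0.87 ± 0.14 (adjusted p = 0.0047), the 1 member called there, against 3.44% of all genes (1.31% higher). The other 9 differed by -0.31 to 0.21. When the Xist-high arrays had their own term, this Apom difference was 0.31 (adjusted p = 0.76), and the change from chow at 20 weeks in AIM-KO was -0.93 (adjusted p = 0.030). That term is set by a single WT array, since the other 3 Xist-high arrays form 1 group. In WT the fall of Apom at 12 weeks was not called without replicate 1 of that group (-0.55, adjusted p = 0.067). Of the 20 other ways of processing, 17 kept the call in WT at each time. At 12 weeks the other 2 losses were the scalings to spike-in controls (-0.55, adjusted p = 0.076) and to hepatocyte markers (-0.41, adjusted p = 0.081). At 20 weeks the 3 losses were the scalings to spike-in controls (-0.46, adjusted p = 0.091), to the 100 brightest other probe sets (-0.48, adjusted p = 0.054) and to hepatocyte markers (-0.33, adjusted p = 0.13). The second Apom probe set gave the same signs, with log2 changes at 12 weeks of -1.37 ± 0.19 in AIM-KO and -0.83 ± 0.19 in WT.

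The Apom window, shown as the counterpart with the opposite change, lies at chr17:35131802-35132051 on the minus strand of GRCm38.p6 (RefSeq). Capitals mark GGGTCA, a half-site variant found 156 and 32 bases before the start and in 11.6% of all windows. The other 3 motifs above were not found in it on either strand, and TATAAA, the TATA box, which 12.4% of windows hold, was in none of the 3 windows.
Apom: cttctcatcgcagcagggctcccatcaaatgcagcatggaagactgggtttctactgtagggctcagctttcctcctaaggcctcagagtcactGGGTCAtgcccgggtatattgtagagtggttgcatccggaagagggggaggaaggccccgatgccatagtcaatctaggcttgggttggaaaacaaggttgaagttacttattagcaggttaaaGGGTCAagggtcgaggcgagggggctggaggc

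**Figure D2:**
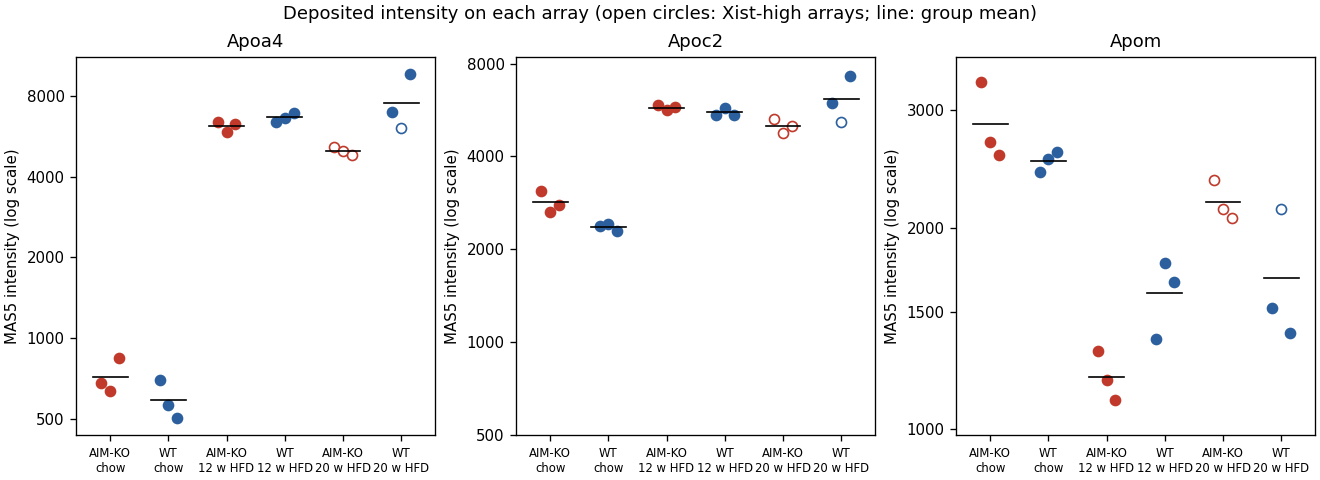
Deposited MAS5 intensity (log y axis) of Apoa4, Apoc2 and Apom on each array, by group (x axis, AIM-KO red, WT blue; w, weeks); each circle is 1 array, the line is the group mean and open circles are the 4 Xist-high arrays. HFD arrays of Apoa4 and Apoc2 lie above all chow arrays, and the Xist-high WT array of Apom lies beside the AIM-KO arrays at 20 weeks.

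Apob encodes the structural protein of VLDL. Its brighter probe set read 6644.6 to 10414.6 over the 18 arrays and was called in no comparison. The dimmer Apob set behaved otherwise. On chow it read 648.0, 715.4 and 575.5 in AIM-KO and 907.2, 818.0 and 750.0 in WT. At 12 weeks it read 472.6, 362.4 and 379.2 in AIM-KO and 590.1, 512.7 and 452.3 in WT. The 20-week values were 255.6, 228.3 and 261.6 in AIM-KO and 416.8, 354.4 and 402.5 in WT. Within each genotype the 3 diets did not overlap, and on chow and at 20 weeks every AIM-KO array lay below every WT array. The log2 change of this set at 12 weeks was -0.67 ± 0.13 in AIM-KO (adjusted p = 0.0012) and -0.67 ± 0.13 in WT (adjusted p = 0.0043). At 20 weeks it was -1.36 ± 0.13 in AIM-KO (adjusted p = 2.7e-06) and -1.07 ± 0.13 in WT (adjusted p = 2.3e-05). In AIM-KO it was also lower at 20 than at 12 weeks, with a log2 difference of -0.69 ± 0.13 (adjusted p = 0.0076), where the brighter Apob set gave 0.05 ± 0.13. The sources used here do not place the sets on the transcript, and the disagreement of the 2 sets leaves the level of Apob mRNA uncertain.

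**Figure D3:**
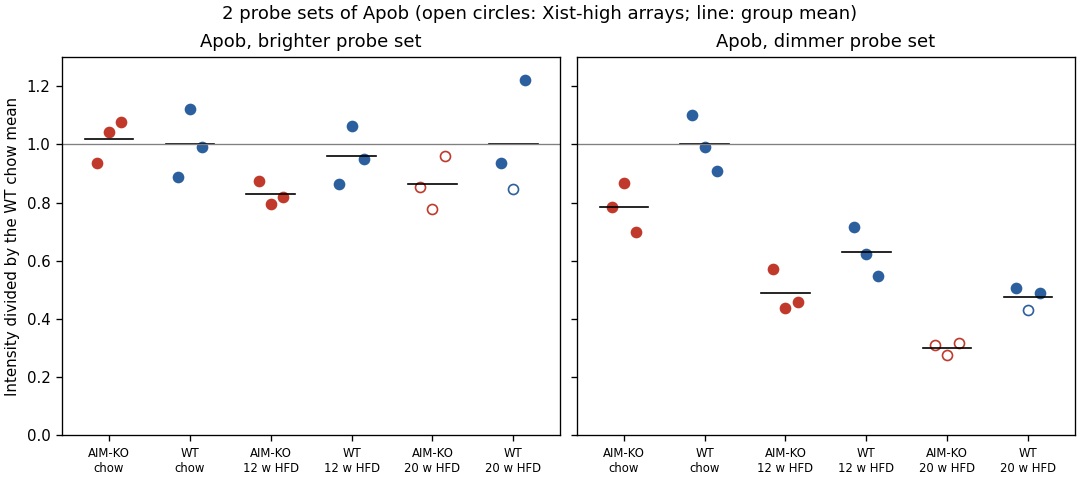
Intensity of the brighter (left) and dimmer (right) Apob probe set on each array, divided by the mean of the 3 WT chow arrays of that set, by group (x axis; AIM-KO red, WT blue; w, weeks). Circles are arrays, open ones Xist-high, and lines are group means; at 20 weeks the dimmer set is at 0.301 in AIM-KO and 0.474 in WT, and the brighter set at 0.864 in AIM-KO and 1.001 in WT.

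The other 6 genes were Apoa1 and Apoa2, the main HDL proteins, Apoa5, which promotes lipolysis, Apoc1 and Apoc3, which restrain it, and the remnant ligand gene Apoe. With Apob they sat at the top of the intensity scale. Apoa1 ranked between place 2 and place 8 among all probe sets and reached up to 96.4% of the array maximum, Apoa2 ranked between 3 and 37, and Apoe between 26 and 48. The highest array was 1.35 times the lowest for Apoa1, 1.71 times for Apoa2, 1.44 times for Apoc1 and 1.47 times for Apoe. For Apoa4 the same ratio was 19.1. On HFD Apoa4 reached 9631.0 and Apoc2 7302.4, both inside the range of Apoa2 (7216.4 to 12333.0). The deposited table holds 1 summarised value per probe set, so whether single probes were saturated was not tested. Whether compression at this brightness also touched the changes of Apoa4 and Apoc2 was likewise not tested.

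The bright genes moved up and down together from array to array. Within groups the Pearson correlations of the 15 pairs among Apoa1, Apoa2, Apob, Apoc1, Apoc3 and Apoe lay between 0.81 and 0.98 over 18 arrays. The mean of the 100 brightest other probe sets correlated with these 6 genes at 0.86 for Apoa1 to 0.97 for Apoe within groups, and with Apoa5 at 0.68. The mean of 9 spike-in control probe sets, transcripts of bacteria and phage added to each sample, correlated with the 6 genes at 0.65 to 0.77. All points share the array and its scaling. Replicate 3 of WT at 20 weeks held the highest value of Apoa2, Apob and Apoc3, and replicate 2 of WT on chow that of Apoa1, Apoc1 and Apoe.

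**Figure D4:**
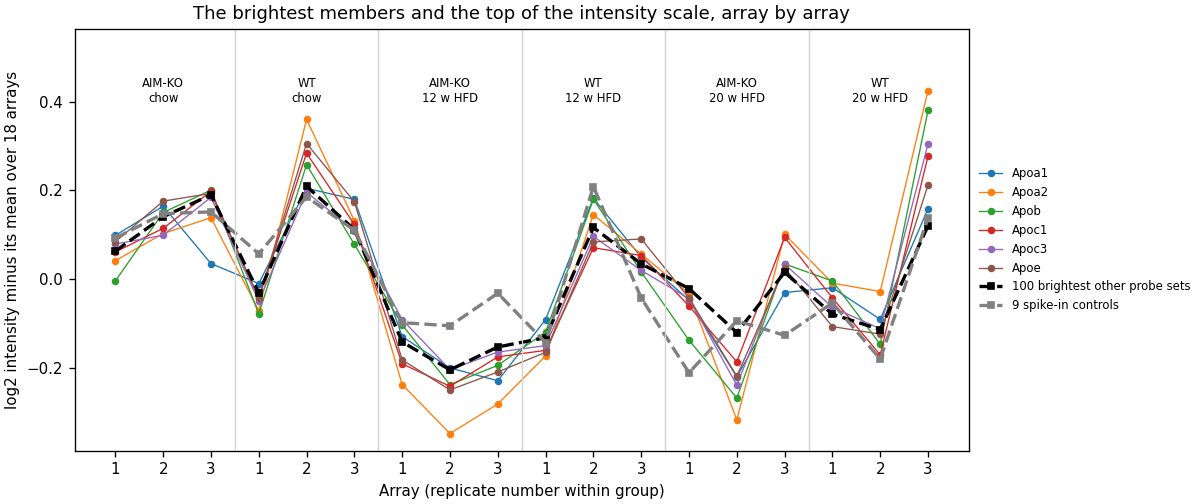
Log2 intensity of 6 bright genes on each of the 18 arrays, minus the gene's own mean (y axis), with the arrays in group order (x axis, replicate numbers; w, weeks). Black squares are the mean of the 100 brightest other probe sets and grey squares that of 9 spike-in controls; on the 3 AIM-KO arrays at 12 weeks all 6 genes and the black line lie below their own means.

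In AIM-KO at 12 weeks Apoa1 read 9955.0, 9479.3 and 9291.6, against 11660.9, 12205.1 and 11158.8 in AIM-KO on chow, without overlap. Apoe read 7345.9, 7008.5 and 7208.3 in AIM-KO at 12 weeks, against 8834.2, 9413.1 and 9528.0 in AIM-KO on chow, again without overlap. The log2 change was -0.29 ± 0.10 for Apoa1 (adjusted p = 0.046) and -0.36 ± 0.11 for Apoe (adjusted p = 0.028), and these calls complete the 5 named above. Apoa2 (-0.38 ± 0.14, adjusted p = 0.058) and Apoc1 (-0.33 ± 0.12, adjusted p = 0.058) missed the threshold. Apob (-0.29 ± 0.13), Apoc3 (-0.27 ± 0.11) and Apoa5 (-0.06 ± 0.12) had adjusted p-values of 0.13, 0.10 and 0.80. Between the same groups the 100 brightest other probe sets moved by -0.30, the spike-in controls by -0.21 and 7 hepatocyte markers by -0.45 in mean log2, and the array maximum was 10002.9 to 10685.1 in AIM-KO at 12 weeks and 12270.0 to 16640 in AIM-KO on chow. Their part in the change was not tested.

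The Apoa1 and Apoe calls depended on the scaling. After quantile normalization Apoa1 changed by 0.09 and Apoe by -0.07, with a median over all genes of 0.0046. Scaled to the spike-in controls Apoa1 changed by -0.08 (adjusted p = 0.60) and Apoe by -0.16 (adjusted p = 0.30), with a median over all genes of 0.25. Scaled to the 100 brightest other probe sets Apoa1 changed by 0.01 and Apoe by -0.07, with a median over all genes of 0.34. Scaled to the hepatocyte markers Apoa1 changed by 0.16, Apoe by 0.08 and Apoa5 by 0.39 (adjusted p = 0.0056), with a median over all genes of 0.49. Leaving out any single array of these groups ended the Apoa1 call, and 5 of the 6 omissions ended the Apoe call. In WT at 12 weeks the same 7 genes changed by -0.14 to 0.06, and at 20 weeks by -0.15 to 0.07, with no call. In AIM-KO at 20 weeks they changed by -0.24 to 0.01, also with no call.

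**Figure D5:**
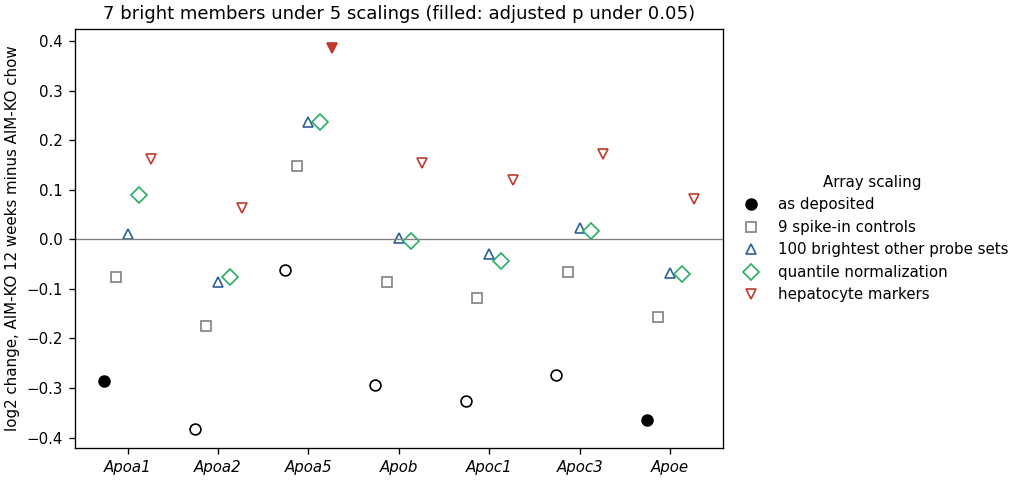
Log2 change of 7 bright genes, AIM-KO at 12 weeks minus AIM-KO on chow (y axis), under 5 scalings of the arrays (symbols); filled symbols have an adjusted p under 0.05. As deposited all 7 lie below 0, with Apoa1 at -0.29; scaled to the hepatocyte markers all 7 lie above 0, with Apoa5 at 0.39.

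Macrophage markers are given because macrophages also transcribe Apoe and Apoc1. The summed intensity of 10 macrophage markers was 4933.9 to 5708.1 in AIM-KO at 12 weeks and 2472.9 to 3244.9 in AIM-KO on chow, where 6 of 10 markers rose, among them Cd68 (1.05 ± 0.17, adjusted p = 0.00040). At 20 weeks in AIM-KO it was 2827.7 to 4031.5. In WT the sum was 2585.6 to 2769.1 on chow, 2922.7 to 4490.1 at 12 weeks and 4814.0 to 4959.3 at 20 weeks, with 6 of 10 markers called higher at 20 weeks. There 1 other marker was lower at an unadjusted p under 0.05 in limma. At that unadjusted threshold 6 were higher and 0 lower in WT at 12 weeks, and 2 higher and 0 lower in AIM-KO at 20 weeks. As deposited, the log2 changes of Apoe and Apoc1 against chow were below 0 in all 4 comparisons. The part of macrophages in their levels was not tested. Stellate cell markers moved with the diet as well. The sum of 7 such markers was 768.4 to 809.4 in AIM-KO on chow, 1485.2 to 1916.1 at 12 weeks and 1188.7 to 1640.4 at 20 weeks, and in WT 828.1 to 978.9, 1468.2 to 1931.5 and 1963.1 to 2659.8 in the same order. Of these 7 markers 5 rose in AIM-KO at 12 weeks and 4 at 20 weeks, and in WT 2 and 6. Of 6 endothelial markers 2 rose in AIM-KO at 12 weeks and 1 in WT at either time, and limma called 0 in AIM-KO at 20 weeks, where 1 had an unadjusted p under 0.05. Beside these marker counts, 11.4% of all genes were called higher in AIM-KO at 12 weeks and 4.29% at 20 weeks, and in WT 3.52% and 8.72%. Such shares hold for the adjusted threshold only. The part of these cells in the changes of the 10 genes was not tested. Of the 7 hepatocyte markers 4 fell in AIM-KO at 12 weeks, 1 in WT at 12 weeks and 3 in WT at 20 weeks, against 6.78%, 1.63% and 5.77% of all genes. In AIM-KO at 20 weeks limma called 0, and 2 were lower at an unadjusted p under 0.05. Of these markers Alb, Cps1, Cyp2e1, Fgb and Ttr were bright, at 4507.2 or more on every array. The 100 brightest other probe sets moved by -0.30 in AIM-KO at 12 weeks, and by -0.09 and -0.12 in WT at 12 and 20 weeks. The part of the scaling in these calls was not tested. Hnf4a, a hepatocyte transcription factor that drives many apolipoprotein genes, changed by -0.57 ± 0.12 in AIM-KO at 12 weeks (adjusted p = 0.0030), and in WT by -0.45 ± 0.12 and -0.65 ± 0.12 at 12 and 20 weeks (adjusted p-values 0.037 and 0.0014).

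No member was called between AIM-KO and WT on any diet. The tests called 0 of 10 on chow, against 0.0272% of all genes, 0 at 12 weeks, against 0.0749%, and 0 at 20 weeks, against 0.157%. Averaged over chow and 12 weeks, the diets at which no array was Xist-high, they also called 0, against 0.0545%. At an unadjusted p under 0.05 limma gave 1 member on chow (Apoc2), 3 at 12 weeks (Apoa1, Apoa2 and Apom), 3 at 20 weeks (Apoa4, Apoc2 and Apom) and 1 in the average (Apoc2). The percentages above are for the adjusted threshold, and the share of all genes at the unadjusted one is not given here, so these counts have no background beside them. The intervals show what these arrays could resolve. On chow Apoc2 was higher in AIM-KO by 0.27 on the log2 scale (95% interval 0.05 to 0.48, adjusted p = 0.59). At 12 weeks Apom differed by -0.41 (95% interval -0.71 to -0.11, adjusted p = 0.37), and Apoa4 by -0.11 (95% interval -0.41 to 0.20). Over all 10 members, each by its brightest probe set, the differences ran from -0.05 to 0.29 on chow, from -0.41 to 0.05 at 12 weeks and from -0.17 to 0.16 in the average. The dimmer Apob set had a mean in AIM-KO of 0.783 times that in WT on chow and 0.781 times at 12 weeks.

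At 20 weeks the AIM-KO minus WT difference was -0.57 ± 0.15 for Apoa4 (adjusted p = 0.095), -0.28 ± 0.10 for Apoc2 (adjusted p = 0.24) and 0.40 ± 0.14 for Apom (adjusted p = 0.21), with the other 7 between -0.21 and 0.03. The dimmer Apob set lay outside this range, with a mean in AIM-KO of 0.635 times that in WT. Apob was called here under 0 of the 20 other ways of processing, but narrowly so under 1 of them. Its differences ran from -0.65 to 0.02, and the lowest limma adjusted p was 0.0502. Replicate 2 of WT at 20 weeks was the only Xist-high WT array. Without it the differences for Apoa4, Apoc2 and Apom were -0.72 (adjusted p = 0.0068), -0.39 (adjusted p = 0.021) and 0.59 (adjusted p = 0.0094), so that 3 members were called. Over all 14691 genes, leaving out 1 array of these groups moved the 23 calls to between 2 and 948. The all-gene count for this omission alone is not given here, so the 3 calls have no background of their own. Without replicate 2 of WT, all AIM-KO arrays and no WT array at 20 weeks are Xist-high, and genotype and that split cannot be told apart. The actin 3'/5' ratio, a sign of RNA quality, ran with the same split: it was 2.35 to 2.61 on the AIM-KO arrays at 20 weeks, 2.54 on the WT array left out, and 3.64 and 4.22 on the other WT arrays, the higher of them on replicate 3, which held the highest Apoa4 value. With this ratio as a term in the fit of all arrays, the differences were -0.46 for Apoa4, -0.12 for Apoc2 and 0.27 for Apom, and no member was called. When all arrays were fitted with a separate Xist term, the differences were -0.28 for Apoa4, -0.04 for Apoc2 and 0.03 for Apom. That term is set within WT at 20 weeks alone, so these values set the AIM-KO arrays against replicate 2 of WT only.

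The difference between genotypes in the diet effect was also tested directly. At 12 weeks it called 0 members, against 0.00681% of all genes, with 1 member at an unadjusted p under 0.05: Apom, at -0.58 ± 0.20 (adjusted p = 0.37), with the other 9 between -0.40 and -0.12. At 20 weeks it called 0 members, against 0% of all genes, with 2 at an unadjusted p under 0.05. These were Apoa4, where the diet effect in AIM-KO minus that in WT was -0.86 ± 0.21 (adjusted p = 0.20), and Apoc2, where it was -0.54 ± 0.15 (adjusted p = 0.24), with the other 8 between -0.23 and 0.23. Between 20 and 12 weeks in WT 0 members were called, against 0.0204% of all genes, and 0 had an unadjusted p under 0.05, with differences of -0.03 to 0.16. Here too the percentages hold for the adjusted threshold only.

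In the genome 7 of the 10 genes stand in 2 clusters. The chromosome 9 cluster holds Apoa1, Apoc3, Apoa4 and Apoa5 in this order, with no other protein-coding gene between them. Apoa4 alone of these 4 was called in WT, and its neighbours Apoc3 and Apoa5 changed by -0.10 ± 0.11 and 0.06 ± 0.12 in WT at 12 weeks, where Apoa4 changed by 3.51. The chromosome 7 cluster holds Apoc2, Apoc4, Apoc1 and Apoe, and again 1 of 4 was called in WT: Apoc2 changed by 1.23 at 12 weeks, Apoc4, which is not among the 10, by -0.05 ± 0.11, Apoc1 by -0.13 ± 0.12 and Apoe by -0.14 ± 0.11. Each of the 2 genes that rose thus stood beside genes that were not called in WT. The members among these neighbours already lay near the top of the intensity scale on chow, and whether this hid a rise was not tested. Of 12 further genes near the members, besides Apoc4, Tagln, a smooth muscle gene, was called higher in all 4 comparisons with chow (2.27 in AIM-KO and 1.92 in WT at 12 weeks), and Relb, which encodes an NF-kappaB subunit, in AIM-KO at 12 weeks (1.78 ± 0.45). Both were dim, with Tagln at 1.7 to 63.8 and Relb at 3.3 to 31.3 over the 18 arrays, so the sizes of these changes depend on the added 3.3. Apoa2, Apob and Apom lie alone on chromosomes 1, 12 and 17.

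The genes outside the 10 whose log2 values ran most like those of a called member were found by Pearson correlation over the 18 arrays. Those nearest to Apoa4 were Fabp2 (0.98), which encodes a fatty acid binding protein, Col14a1 (0.96) and Plin2 (0.96), which encodes a coat protein of lipid droplets. Those nearest to Apoc2 were Fabp2 (0.97), Ccdc80 (0.96) and Osbpl3 (0.96). Fabp2 rose by 1.35 ± 0.11 in AIM-KO and 2.00 ± 0.11 in WT at 12 weeks. Those nearest to Apom were Cth (0.96), which encodes cystathionine gamma-lyase, Afmid (0.95) and Pxmp2 (0.94). Cth, like Apom, read higher on the Xist-high WT array (3567.9) than on the other WT arrays at 20 weeks (2510.7 and 2920.8). Those nearest to Apoa1 were Apoh (0.95), Ttr (0.94) and Azgp1 (0.93), and those nearest to Apoe were Adh1 (0.98), Apoh (0.97) and Ttr (0.97). These correlations pool the group means with the spread within groups, and all of these genes share the array scaling. No within-group value is given for them, so the part of the group means was not tested.

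Among 11 other apolipoproteins and HDL-bound proteins, the acute-phase genes Saa1 and Saa2 rose most. At 12 weeks 2 of 11 were higher and 2 lower in AIM-KO, against 11.4% and 6.78% of all genes. In WT at 12 weeks 2 were higher and 0 lower, against 3.52% and 1.63% of all genes. Saa2 changed by 2.82 ± 0.42 in AIM-KO and 3.36 ± 0.42 in WT, and Saa1 by 1.55 ± 0.30 in AIM-KO and 2.23 ± 0.30 in WT. The lower genes in AIM-KO were Pon1 (-0.51 ± 0.12), an HDL-bound esterase, and Apoh (-0.37 ± 0.10). Both were bright, with Pon1 at 4781.8 to 8178.0 and Apoh at 6410.9 to 9156.4 over the 18 arrays. The 100 brightest other probe sets moved by -0.30 between the same groups, and the part of the scaling in these 2 calls was not tested. At 20 weeks Saa2 was the 1 gene called in AIM-KO (2.08 ± 0.42), while in WT Saa2 (3.29 ± 0.42) and Saa1 (2.21 ± 0.30) were higher. Over all genes 6.96% were called in AIM-KO and 14.5% in WT at 20 weeks. Apod was also called lower in WT at 20 weeks, but it read at most 13.5 on any array, below every array's median, and no size is given for it.

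Of 16 genes of VLDL assembly and secretion, 3 rose and 1 fell in AIM-KO at 12 weeks, against 11.4% of all genes higher and 6.78% lower. In WT at 12 weeks limma called 0, against 5.15% of all genes. There 6 had an unadjusted p under 0.05, a threshold for which the share of all genes is not given here. The sorting receptor gene Sort1 changed by -0.79 ± 0.21 in AIM-KO at 12 weeks, and Apobec1, which encodes the enzyme that edits Apob mRNA, by 0.50 ± 0.15. Mttp, the transfer protein that loads lipid onto apolipoprotein B, read 1549.0 to 1660.9 in AIM-KO at 12 weeks and 815.1 to 1200.0 in AIM-KO on chow (0.67 ± 0.11, adjusted p = 0.00049). Mttp in WT read 1549.8 to 1650.6 at 12 weeks and 1140.2 to 1334.4 on chow, so the HFD arrays lay above the chow arrays in both genotypes, although the WT change of 0.38 ± 0.11 was not called (adjusted p = 0.060). At 20 weeks Mttp rose in AIM-KO (0.43 ± 0.11) and Sort1 fell (-0.85 ± 0.21), and in WT Sar1a, which acts in export from the endoplasmic reticulum, rose (0.44 ± 0.11) and Sort1 fell (-0.87 ± 0.21).

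Among 7 genes of HDL formation and remodelling, Pltp, the phospholipid transfer protein gene, was higher in all 4 comparisons with chow. It changed by 1.44 ± 0.30 in AIM-KO and 1.70 ± 0.30 in WT at 12 weeks, and by 1.37 ± 0.30 in AIM-KO and 1.55 ± 0.30 in WT at 20 weeks. Abca1, the exporter that lipidates apolipoprotein A-I, fell in AIM-KO at both times, with log2 changes of -0.49 ± 0.11 at 12 weeks and -0.50 ± 0.11 at 20 weeks (adjusted p-values 0.0047 and 0.0099). In WT Abca1 differed from chow by -0.11 ± 0.11 at 12 weeks and by -0.11 ± 0.11 at 20 weeks (adjusted p-values 0.65 and 0.57). The difference of these diet effects, AIM-KO minus WT, was -0.38 ± 0.16 at 12 weeks and -0.39 ± 0.16 at 20 weeks and was not called (adjusted p-values 0.47 and 0.42), so the fall is not shown to differ between genotypes. At 12 weeks 2 of the 7 rose and 2 fell in AIM-KO, among them the cholesterol exporter gene Abcg1 (0.59 ± 0.16) and Lcat (-0.55 ± 0.17), which encodes the enzyme that esterifies cholesterol on HDL, and 1 rose in WT. At 20 weeks 2 rose and 1 fell in AIM-KO, with the lipase gene Lipg at 1.32 ± 0.35, and 3 rose in WT, with Lipg at 1.22 ± 0.35 and Abcg1 at 0.81 ± 0.16. Over all genes 11.4% were called higher and 6.78% lower in AIM-KO at 12 weeks, and 3.52% higher in WT. At 20 weeks 6.96% of all genes were called in AIM-KO, 4.29% of them as higher, and 8.72% were higher in WT.

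Of 5 genes of lipoprotein uptake, Vldlr, the VLDL receptor gene, was called in every comparison with chow. It read 30.3 to 39.2 in AIM-KO and 43.3 to 48.8 in WT on chow, 211.2 to 246.1 in AIM-KO and 102.7 to 177.0 in WT at 12 weeks, and 324.9 to 383.8 in AIM-KO and 210.5 to 280.4 in WT at 20 weeks. In WT at 20 weeks the receptor genes Lsr (-0.49 ± 0.15) and Lrp1 (-0.49 ± 0.16) fell. Of 6 regulators of lipolysis, Angptl4, an inhibitor of lipoprotein lipase, rose in AIM-KO at 12 weeks (1.40 ± 0.40, adjusted p = 0.019), and Lmf1 fell in WT at 20 weeks (-0.58 ± 0.13). Of 16 transcription factors and cofactors that act on apolipoprotein genes, limma called 0 higher in any comparison with chow, where 0 were higher at an unadjusted p under 0.05 in AIM-KO and 1 in WT at each time. In AIM-KO 3 fell at 12 weeks, Srebf1 (-0.80 ± 0.24), Hnf4a and Ppargc1a (-0.56 ± 0.19), and 1 at 20 weeks, Foxa1 (-1.32 ± 0.25). In WT 1 fell at 12 weeks, Hnf4a, and 3 at 20 weeks, Foxa1 (-1.22 ± 0.25), Hnf4a and Nr1h4 (-0.36 ± 0.12). Over all genes 6.78% were called lower in AIM-KO and 1.63% in WT at 12 weeks, and 5.77% in WT at 20 weeks. In AIM-KO at 20 weeks 6.96% of all genes were called in either direction. These shares hold for the adjusted threshold only.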

How the data were processed

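The deposited table holds 1 linear intensity per probe set and array. These intensities are MAS5 values made by the authors, per the submitters' processing notes, with version and scaling target not given in the sources used here. No further normalization was applied. Of 45101 probe sets, 34945 had 1 gene in the platform annotation. Symbols were updated through entrez identifiers with the RefSeq table of GRCm38.p6. Intensities were taken as log2(value + 3.3), 3.3 being their 20th percentile, so changes of dim genes are understated. A probe set entered if 3 or more arrays had it above their 40th percentile, with the brightest probe set standing for each of 14691 genes. The 6 group means were fitted to all 18 arrays with limma 3.58.1 in R 4.3.3, with a variance trend and Benjamini-Hochberg adjustment of two-sided tests. The number of arrays limits the precision: a 3 against 3 comparison had a median standard error of 0.22 in log2 units. The fit was tested on simulated data.

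The 10 members, the gene lists and the motifs were chosen with earlier results of these data known. All members were to be named in every comparison, and are given alone or within a range. Of each list, up to 3 called genes with the largest change were named, in the comparisons with chow only. Groups came from the labels. The labels state no pairing, and the main fit used none. Same-numbered replicates of different groups correlated at -0.09 to 0.23 in their deviations from the group means (median 0.04, 45 pairs, 5 above 0.1). Replicates with different numbers were not set beside them, so these values cannot decide whether the numbers pair samples. RefSeq promoter entries matched 8 of the 10 genes. Alternatives were another pseudocount, other scalings, no filter on dim probe sets, other probe sets, other models and leaving out each array. A member with 1 probe set keeps its values under other probe sets, and such results are among those counted as kept below.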

Additional observations from a re-analysis of the deposited data

How the results depend on the processing

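Of the log2 changes of members recomputed under 30 planned and 2 added settings (the scalings to the 100 brightest other probe sets and to spike-in controls, chosen after seeing the data), 2283 kept their direction and side of the threshold, 230 changed sign without being called before or after, 32 passed the threshold newly, 29 no longer passed it and 6 changed sign with a call before or after. Those 6 were Apoa1 in AIM-KO at 12 weeks (0.089 after quantile normalization, 0.16 scaled to hepatocyte markers, 0.012 scaled to the 100 brightest other probe sets), Apoe (0.083) and Apoa5 (0.39) in AIM-KO at 12 weeks scaled to hepatocyte markers, and Apob in AIM-KO at 20 against 12 weeks with its dimmer probe set (-0.69). Scaled to hepatocyte markers, Apoa2 (0.064), Apob (0.15), Apoc1 (0.12) and Apoc3 (0.17) in AIM-KO at 12 weeks also changed sign, with no call before or after. The 5 members called in AIM-KO at 12 weeks became 3 with quantile normalization, with no filter on dim probe sets, with no variance trend, and with scaling to the 100 brightest other probe sets or the spike-in controls, 9 with only the compared groups or with the actin 3'/5' ratio as a term, and 3 to 4 without 1 array. The 1 member called in AIM-KO at 20 against 12 weeks became 3 with quantile normalization, hepatocyte scaling or the second brightest probe set, 2 with only the compared groups and 0 with the Xist term. Without 1 array, members called between AIM-KO and WT numbered 0 to 3 at 20 weeks and in the 20-week difference of diet effects 0 to 2, the highest without replicate 2 of WT at 20 weeks. In that difference Apoa4 was then -1.01 (adjusted p = 0.013) and Apoc2 -0.66 (adjusted p = 0.015). Over all genes, leaving out 1 array gave 2 to 948 calls between AIM-KO and WT at 20 weeks, and 0 to 331 in that difference. The all-gene counts for this omission alone are not given here. The cause was not tested.

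With the replicate block, 6 members were called in AIM-KO at 12 weeks: Apoa1 missed the threshold (adjusted p = 0.053), and Apoa2 (adjusted p = 0.046) and Apoc1 (adjusted p = 0.039) passed it. It changed no other call of a member. Counts over all genes moved further. In AIM-KO at 12 weeks 2666 genes became 1710 to 5730, at 20 weeks 1022 became 197 to 2148, and at 20 against 12 weeks 505 became 5 to 1349. In WT 756 at 12 weeks became 335 to 1458, 2129 at 20 weeks became 1373 to 2885, and 3 at 20 against 12 weeks became 1 to 34. Between AIM-KO and WT, 4 on chow became 3 to 7, 11 at 12 weeks became 3 to 104, 23 at 20 weeks became 2 to 948, and 8 in the average became 5 to 22. The differences of diet effects became 0 to 23 genes at 12 weeks and 0 to 331 at 20 weeks. Signal near the array maximum limits what can be said of the bright members.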
